A study of Mus musculus with 2 samples.

Results

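The *Gadd45* family and the core genes of the p53 response were examined in mouse embryonic stem cells (mESCs) with and without CHIR99021 (CHIR). The set held 10 genes, *Gadd45a*, *Gadd45b*, *Gadd45g*, *Cdkn1a*, *Ccng1*, *Trp53*, *Mdm2*, *Trp53inp1*, *Sesn2* and *Bbc3*, each with 1 identifier among the 30774 on the array. They were chosen by name, with the signals of these same arrays already known, so the values below describe the members and nothing is tested with them. RNA came from B6 mESCs, a line whose source is given as the inner cell mass of the E3.5 embryo, kept in medium with serum. One sample was cultured with LIF, the cytokine that maintains mESCs through Stat3, and the other with LIF plus CHIR, an inhibitor of the kinase GSK3 that activates Wnt/β-catenin signalling, and the treatment lasted 12 h. Each condition was measured on 1 array. No difference between the conditions has a replicate check, and what CHIR did cannot be told apart from how these cultures would have differed without it.

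The transcription factor p53, encoded by *Trp53*, is stabilised when DNA is damaged or a cell is otherwise stressed. It activates genes that halt the cell cycle, repair DNA, adjust metabolism or trigger apoptosis. It also activates *Mdm2*, whose product marks p53 for degradation, which closes a negative feedback loop. The *Gadd45* genes encode small stress proteins that bind cell cycle kinases, PCNA and the kinase MAP3K4, and they have been linked to active DNA demethylation. *Gadd45a* is a classical p53 target, whereas *Gadd45b* and *Gadd45g* are also induced by cytokines and developmental signals. ESCs express p53 and cycle rapidly, with a short G1 phase and little *Cdkn1a*.

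The promoters of the *Gadd45* family and of *Cdkn1a* are shown because these genes include the 2 members whose signal differed most between the arrays. The sequences are from RefSeq (build GRCm38.p6), whereas the array tables name no build. Each line gives the 250 bases before a transcription start, 5′ to 3′ on the strand of the gene, and capitals mark the motifs found there. *Gadd45g* lies at chr13:51846425-51846674 on the plus strand, *Gadd45b* at chr10:80929841-80930090 on the plus strand and *Gadd45a* at chr6:67037408-67037657 on the minus strand. *Cdkn1a* has 2 annotated starts 2790 bases apart on the plus strand, and the windows before them lie at chr17:29090729-29090978 and chr17:29093519-29093768.
Gadd45g: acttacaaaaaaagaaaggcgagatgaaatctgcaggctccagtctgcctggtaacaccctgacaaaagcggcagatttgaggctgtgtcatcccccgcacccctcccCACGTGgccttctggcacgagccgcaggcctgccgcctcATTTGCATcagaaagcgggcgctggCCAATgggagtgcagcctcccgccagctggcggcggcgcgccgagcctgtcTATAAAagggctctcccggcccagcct
Gadd45b: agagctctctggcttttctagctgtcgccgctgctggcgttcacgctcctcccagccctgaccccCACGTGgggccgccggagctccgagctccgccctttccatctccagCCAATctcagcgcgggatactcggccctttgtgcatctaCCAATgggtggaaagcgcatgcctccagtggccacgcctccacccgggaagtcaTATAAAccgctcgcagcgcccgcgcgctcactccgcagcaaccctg
Gadd45a: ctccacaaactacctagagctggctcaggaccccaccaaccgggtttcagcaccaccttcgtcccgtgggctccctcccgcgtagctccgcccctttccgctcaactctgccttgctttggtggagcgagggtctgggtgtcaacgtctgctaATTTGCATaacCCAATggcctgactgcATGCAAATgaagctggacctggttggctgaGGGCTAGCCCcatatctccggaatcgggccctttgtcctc
Cdkn1a, upstream start: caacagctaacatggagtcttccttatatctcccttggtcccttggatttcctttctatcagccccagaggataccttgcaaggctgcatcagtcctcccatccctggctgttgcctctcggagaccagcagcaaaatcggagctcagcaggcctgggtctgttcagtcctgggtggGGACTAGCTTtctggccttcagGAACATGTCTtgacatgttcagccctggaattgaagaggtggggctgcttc
Cdkn1a, downstream start: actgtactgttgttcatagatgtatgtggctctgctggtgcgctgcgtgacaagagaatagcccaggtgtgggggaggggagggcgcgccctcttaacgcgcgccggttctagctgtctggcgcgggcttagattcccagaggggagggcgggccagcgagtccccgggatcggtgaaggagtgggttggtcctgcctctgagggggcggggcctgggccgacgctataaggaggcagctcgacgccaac

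Motifs were searched on both strands in windows from 250 bases before to 50 bases after each start. RefSeq windows were found for 9 of the 10 members, 12 windows in all, and 32851 windows of the same length over 27025 genes served as background. No 2 motifs overlapped in the members' windows. The *Gadd45* promoters shared their layout in part. *Gadd45g* held a TATA box (TATAAA, in 13.6% of all windows) at -27, a CCAAT box (CCAAT, in 37.4%) at -78 and an E-box (CACGTG, in 7.15%) at -142. *Gadd45b* had the same 3 motifs, with the TATA box at -46, CCAAT boxes at -139 and -100 and the E-box at -185. *Gadd45a* had a CCAAT box at -86 but neither of the other two. The octamer ATGCAAAT, the element bound by POU factors such as Oct4, was searched for after these sequences had been read. It occurred once in *Gadd45g*, at -103, and at -97 and -70 in *Gadd45a*. It was thus in 2 of the 12 member windows and in 1.74% of all windows.

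The consensus half-site of p53 occurred in 5 of the 12 member windows, each of a different member, and in 8.36% of all windows. It lay at -40 in *Gadd45a*, at -73 and -51 before the upstream start of *Cdkn1a*, at -185 in *Ccng1*, at -186 in *Mdm2* and at -75 in *Trp53*. The window before the downstream start of *Cdkn1a* held none of the motifs. A TCF/LEF match (CTTTG followed by AA, AT, TA or TT, in 16.9% of all windows) was found in 1 member, *Mdm2*, at position 44 after the start. No member had the STAT motif TTCNNNGAA, which 8.30% of all windows had. These are matches of letters and do not show that a factor binds there.

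Signals are background-subtracted intensities in arbitrary units on a linear scale, as deposited, and a detection p-value gives the position of a signal among the negative control beads of its array. An identifier was counted as detected with a detection p under 0.01 on at least 1 array, which 9615 of 30774 met. Differences are given as log2 of the signal in LIF plus CHIR over that in LIF, with a limit of 1.5-fold for calling an identifier higher or lower. Before the ratio, very low signals were raised to a minimum set by the dimmest detected identifiers, which affected no member. Signals of different genes depend on their probes, so a brighter gene is not read as one with more RNA. The arrays had 9021 detected identifiers for LIF and 9174 for LIF plus CHIR, with a median log2 difference of -0.00 over the detected identifiers. The Wnt targets *Axin2* (314.1 and 1178), *Sp5* (48.8 and 809.5) and *Cdx1* (75.2 and 963.2) had the higher signal on the array labelled LIF plus CHIR. *Sp5* was not detected in LIF (detection p 0.0150). The study picked *Sp5* from these arrays partly because it was higher with CHIR, so its direction is no separate check. Of 7 ESC markers 6 were detected, *Sox2* being the exception, with signals of 441.2 and 400.2. None of 6 fibroblast markers, which feeder cells express, was detected by its p-value, although *Thy1* had signals of 222.3 and 225.3. Of 6 primitive endoderm markers, *Sox7* (45.9 and 59.0) and *Lama1* (1538 and 1879) were detected. In a bulk sample, fewer cells expressing a gene and less RNA per cell cannot be told apart.

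Of the 10 members 9 were detected. At the 1.5-fold limit *Gadd45g* was lower, *Cdkn1a* was higher and the other 7 were under the limit. Over all detected identifiers 288 were higher (3%) and 304 lower (3.16%). Among the 3269 whose brighter signal was 1000 or more, which include 7 of the 9 members detected, 39 were higher (1.19%) and 33 lower (1.01%). The members were picked with this contrast in view, so nothing is read from their share. Signals in LIF plus CHIR were below those in LIF for 8 of the 9 members, with a median log2 difference of -0.13, and for 4882 of the 9615 detected identifiers.

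**Figure D1:**
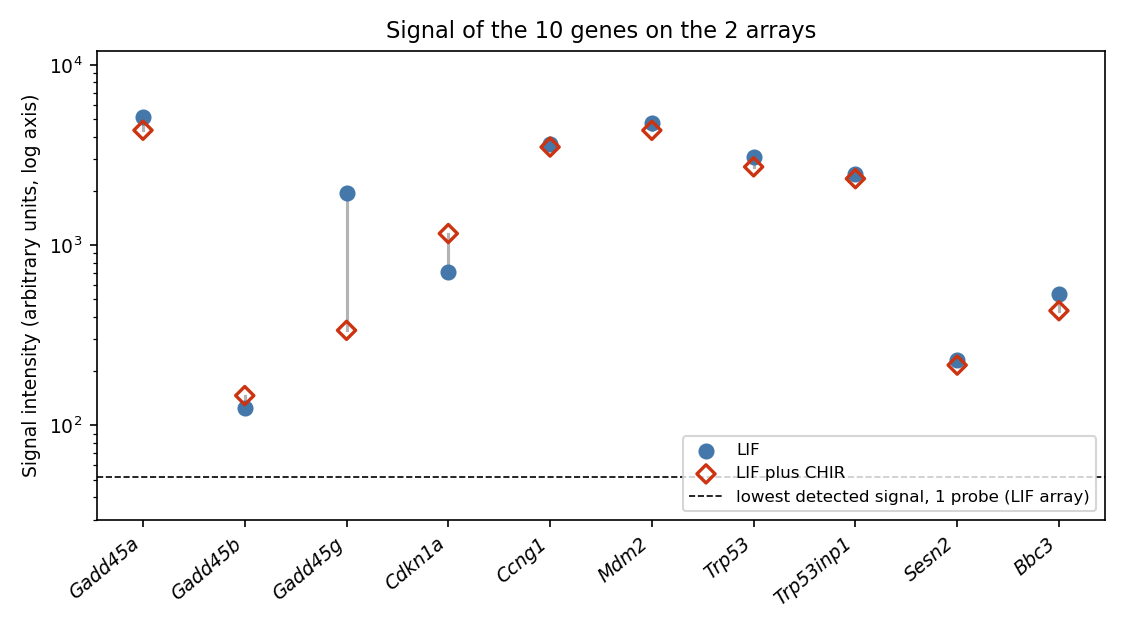
Signal intensity (arbitrary units, log axis) of the 10 genes, with a filled circle for the LIF array, an open diamond for the LIF plus CHIR array and a grey line joining them. The dashed line marks the lowest detected signal of an identifier with 1 probe on the LIF array, 51.9. *Gadd45g* has the widest gap, from 1939 to 336.9, *Cdkn1a* differs the other way, and the symbols of *Ccng1*, *Trp53inp1* and *Sesn2* nearly coincide.

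*Gadd45g*, which encodes a growth arrest protein induced by cytokines and in early neural progenitors, had a signal of 1939 in LIF and 336.9 in LIF plus CHIR. The signal was thus 5.76-fold lower with CHIR (log2 -2.52). It was well above the negative controls on both arrays, with a detection p of 0 on each, so a transcript was still measured with CHIR. Of the 3269 identifiers of similar brightness, no other differed as far in either direction. Of all 9615 detected identifiers, 1 other had as low a log2 value or lower. Within its array the gene moved from the 92.8th to the 81.0th percentile of signal, a difference of -11.8 points. The log2 value lay between -2.53 and -2.47 under the 8 alternative settings. Of these, only quantile normalization, scaling to equal medians and normexp could change it, and at such signals on nearly matched arrays only by little.

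*Gadd45a* did not share a difference of this size, and for *Gadd45b*, not detected by its p-values, the size cannot be judged. *Gadd45a*, the DNA damage-inducible founder of the family, had signals of 5166 without CHIR and 4345 with it, 1.19-fold lower (log2 -0.25). Among identifiers of its brightness class, 13.6% differed as far or farther. *Gadd45b*, a target of NF-κB and TGF-β signalling, had signals of 125.2 and 146.4, with detection p of 0.0803 and 0.171, and did not count as detected on either array. Its log2 ratio, taken from the signals as deposited, was 0.23.

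*Cdkn1a*, which encodes the cyclin-dependent kinase inhibitor p21 and is the best known p53 target in G1 arrest, differed in the other direction. Its signal of 1161 with CHIR was 1.64-fold higher than that of 709.7 without (log2 0.71), and its detection p was 0 on both arrays. Of the 3269 identifiers of its brightness, 24 had as high a log2 value or higher and 39, or 1.19%, differed as far in either direction, *Cdkn1a* included. Over all 9615 detected identifiers, 188 had as high a log2 value or higher and 365, or 3.80%, differed as far or farther. Its signal in LIF lies in the dimmer class from 100 to 1000, where 7.34% of identifiers were past the limit. It moved from the 86.5th to the 89.8th percentile. The log2 value stayed between 0.70 and 0.72 under quantile normalization, scaling to equal medians and normexp. At such signals on nearly matched arrays these settings could change it only by little. *Ccng1*, which encodes cyclin G1 and is induced by p53 in many cell types, had a signal of 3631 in LIF and 3506 in LIF plus CHIR (log2 -0.05). As large a difference or a larger one was seen in 72.0% of identifiers of its brightness. The 2 growth arrest genes were on different sides of the 1.5-fold limit.

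**Figure D2:**
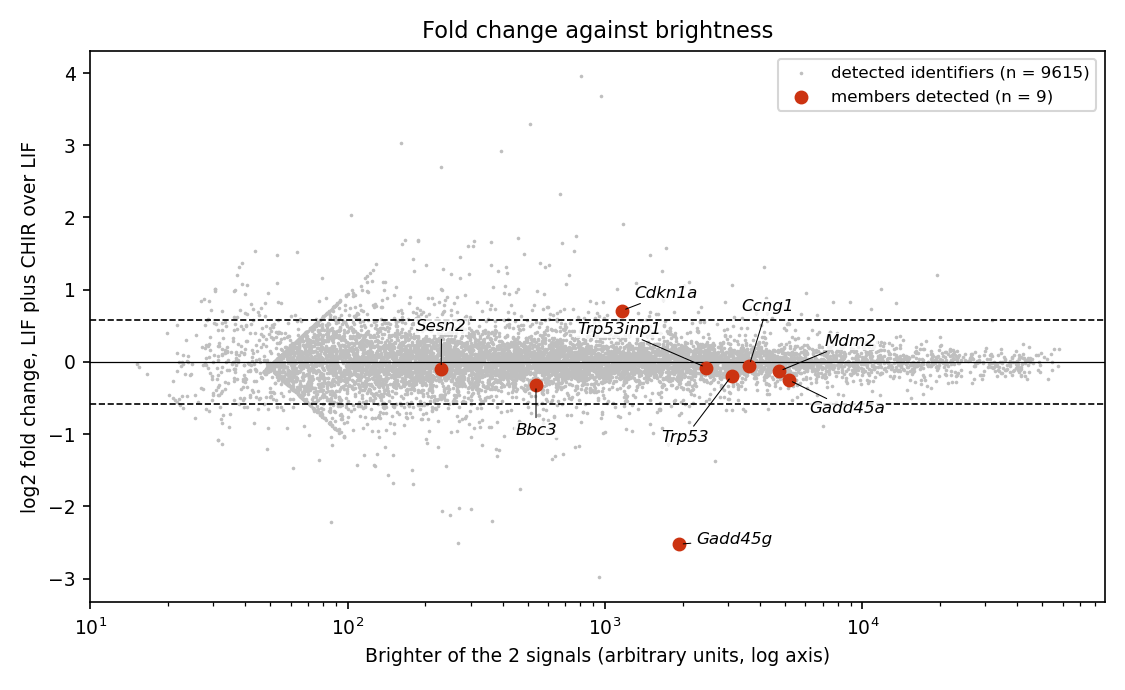
Log2 fold change (LIF plus CHIR over LIF) against the brighter of the 2 signals (arbitrary units, log axis) for the 9615 detected identifiers in grey and the 9 detected members in red, with dashed lines at 1.5-fold. The grey cloud narrows with brightness, from a 5th to 95th percentile range of -0.62 to 0.56 under a signal of 100 to -0.29 to 0.28 at 1000 or more, and *Gadd45g* and *Cdkn1a* lie outside the dashed lines.

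The p53 gene itself and its main antagonist had slightly lower signals with CHIR. *Trp53* had 3106 in LIF and 2722 in LIF plus CHIR (log2 -0.19), and 22.3% of identifiers of its brightness differed as far or farther. *Mdm2*, the ubiquitin ligase that is both a p53 target and its inhibitor, had 4743 and 4340 (log2 -0.13), and 39.8% differed as far or farther. Both log2 values lie inside the 5th to 95th percentile range of their brightness class, -0.29 to 0.28. The array measures transcripts, and the amount and activity of the p53 protein, which are set largely after translation, were not measured.

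The remaining members encode proteins of stress and cell death. *Trp53inp1*, a nuclear stress protein that acts with p53 in apoptosis and autophagy, had a signal of 2470 in LIF and 2340 in LIF plus CHIR (log2 -0.08). *Sesn2*, the stress sensor sestrin 2 that restrains mTORC1, had 230.7 and 216.0 (log2 -0.09). For these, 58.7% and 68.1% of identifiers of their brightness differed as far or farther. *Bbc3*, which encodes the BH3-only protein PUMA, a direct trigger of apoptosis, had 538.7 and 433.0, 1.24-fold lower (log2 -0.32). That difference or a larger one was seen in 22.3% of the 4521 detected identifiers with a brighter signal from 100 to 1000.

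The detection p-values of 5 members rested on several probes that did not all stand above the negative controls. *Mdm2* had a detection p of 0.0407 in LIF and 0.00213 in LIF plus CHIR, so it counted as detected on the second array only, although its signals were 4743 and 4340. *Trp53inp1* had 0.00994 and 0.0118, and counted as detected in LIF only. For 98.7% of identifiers the deposited p-values matched a combination of the detection p-values of 1 to 8 probes through their sum, with each probe ranked among the negative controls. That share includes 6582 identifiers with p of 0 on both arrays and 16684 matched by 1 probe, which do not bear on the combination. Of the rest, 7094 matched 2 or more probes and 414 matched none. By the match of p-values *Mdm2*, *Trp53* and *Bbc3* had 3 probes each and *Trp53inp1* and *Gadd45b* had 2. The probe p-values of *Mdm2* summed to 0.625 in LIF and 0.234 in LIF plus CHIR, so at least 1 of its probes ranked among the negative controls on each array. The sums were 0.0929 and 0.0641 for *Trp53*, 0.141 and 0.154 for *Trp53inp1* and 0.0299 on both arrays for *Bbc3*. For *Gadd45b* they were 0.401 and 0.585. The deposited signal of such a gene is 1 value for all its probes and does not show how they differ. *Gadd45a*, *Gadd45g*, *Cdkn1a*, *Ccng1* and *Sesn2* had a detection p of 0 on both arrays, so all their probes were above every negative control.

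**Figure D3:**
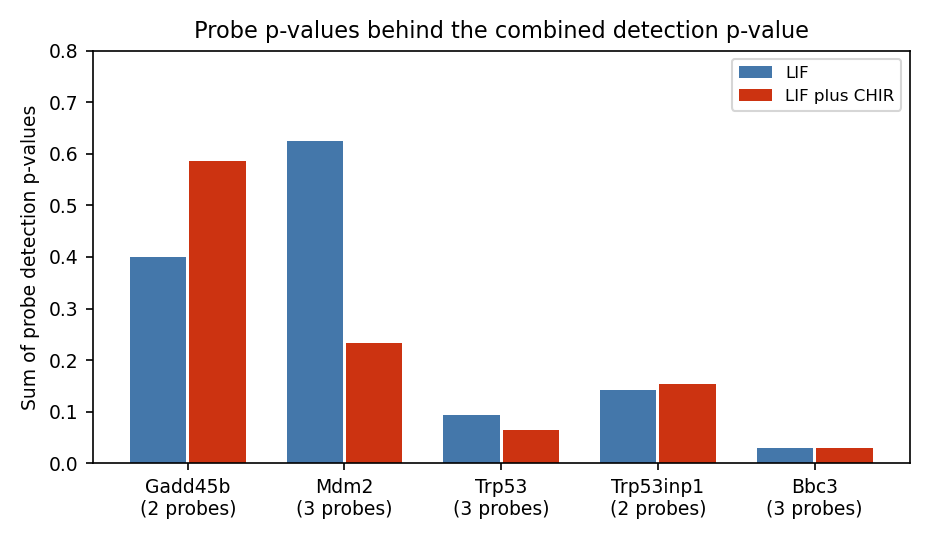
Sum of the probe detection p-values (y axis, no unit) recovered from the combined detection p of the 5 members with several probes not all above every negative control, with blue bars for LIF and red bars for LIF plus CHIR. *Mdm2* in LIF (0.625) and *Gadd45b* in LIF plus CHIR (0.585) have the highest sums, and *Bbc3* (0.0299 on both arrays) has the lowest.

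The wider p53 network was described through 7 lists, which together held 79 genes, all on the array. Of these 47 were detected, 1 was higher, 5 were lower and 41 were under the limit, so 12.8% were past it, beside 6.16% of all detected identifiers. The lists were chosen with earlier results of these data known, so nothing is read from that share. Differences were above 0 for 24 genes and below 0 for 23, with a median of 0.01. The genes past the limit are named, and so is the brightest detected gene of each list. Not detected refers to the p-value and does not mean that a gene had no signal. Of 2718 identifiers with several probes and a mean signal above the lowest detected 1-probe signal on at least 1 array, 1441 were not detected by p-value.

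Among 16 regulators of p53, 7 were detected, with a median log2 difference of -0.05, and 2 were lower. *Trp53bp1*, whose product 53BP1 binds broken chromatin and p53, had a signal of 1594 in LIF and 989.4 in LIF plus CHIR (log2 -0.69). *Hipk2*, a kinase that phosphorylates p53 for apoptosis, had 112.4 and 73.5 (log2 -0.61) and was detected by its p-value only in LIF. In the brightness class of *Hipk2* 7.34% of identifiers were past the limit, and in that of *Trp53bp1* 2.20%. The brightest of the list, *H2ax*, the histone variant phosphorylated at DNA breaks, had 7243 and 6255 (log2 -0.21). *Mdm4*, *Atm*, *Atr*, *Chek1*, *Chek2*, *Ppm1d*, *Cdkn2a*, *Rchy1* and *Mdc1* were not detected by their p-values. Among these, *Ppm1d* (625.5 and 591.4), *Chek2* (422.7 and 476.0) and *Atm* (323.9 and 331.8) still had signals above 100.

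Among 18 p53 targets in growth arrest and metabolism, 11 were detected, with a median of 0.07, and the 2 past the limit were lower. *Sfn*, a 14-3-3 protein of the G2 checkpoint, had signals of 662.4 and 1071 but was not detected by its p-values of 0.0354 and 0.0719, and by mean signal it would count as 1 gene higher in this list. *Plk3*, a stress-induced polo-like kinase, had 2049 and 1362 (log2 -0.59), just past 1.5-fold. *Rprm*, which encodes the G2 arrest protein Reprimo, had 140.6 and 73.2 (log2 -0.94). *Gtse1*, a G2 and S phase protein that restrains p53 and was the brightest of the list, had 5179 and 5408 (log2 0.06). Those not detected also included *Btg2*, *Tigar*, *Steap3*, *Cd82* and *Thbs1*.

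None of the 10 detected among 15 p53 targets in cell death was past the limit, with log2 differences from -0.21 to 0.29 and a median of -0.06. *Bbc3* at -0.32 lay just below that range. The brightest was *Ei24*, a p53-induced protein of the endoplasmic reticulum, with 2706 and 2382 (log2 -0.18). *Pmaip1*, *Fas*, *Perp*, *Eda2r* and *Trp53i11* were not detected. Of 7 p53 targets in DNA repair 4 were detected, with none past the limit, a range of -0.30 to 0.37 and a median of 0.06. The brightest was *Ercc5*, the nucleotide excision repair nuclease XPG, with 1341 and 1312 (log2 -0.03). *Xpc*, *Rrm2b* and *Pcna* were not detected by their p-values, with signals of 316.9 and 322.0, 78.8 and 65.6, and 13.4 and 2.72.

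Of 9 paralogs of the members only 3 were detected, with a median of -0.08. *Cdkn1c*, which encodes p57, the imprinted relative of p21, was the brightest, with 4298 in LIF and 2733 in LIF plus CHIR (log2 -0.65). It was past the limit on the lower side, whereas *Cdkn1a* was past it on the higher side. *Trp63*, *Trp73*, *Sesn3*, *Cdkn1b* and *Ccng2* were not detected. Of 7 genes whose products bind or act with Gadd45 proteins 4 were detected, with a median of 0.04 and none past the limit. *Tet1*, the dioxygenase that oxidises methylated cytosine and the brightest of them, had 9901 and 7987 (log2 -0.31). *Map3k4*, with signals below 0 on both arrays, and *Tdg*, with 324.5 and 331.2, were not detected by their p-values.

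The integrated stress response, a pathway that raises translation of the transcription factor ATF4 and shares *Sesn2* with p53 as a target, had 9 of 10 genes detected, with a median of 0.06. *Asns*, the ATF4 target that makes asparagine and the brightest of the list, was the 1 gene past the limit, with 2289 in LIF and 4223 in LIF plus CHIR (log2 0.88). Its detection p was 0.00871 in LIF, close to the limit of 0.01, and 0.000216 in LIF plus CHIR. By the match of p-values *Asns* had 3 probes, with sums of 0.374 and 0.109. At least 1 of these probes thus ranked among the negative controls on each array. The other 8 detected genes were under the 1.5-fold limit, and *Atf3* was not detected.

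**Figure D4:**
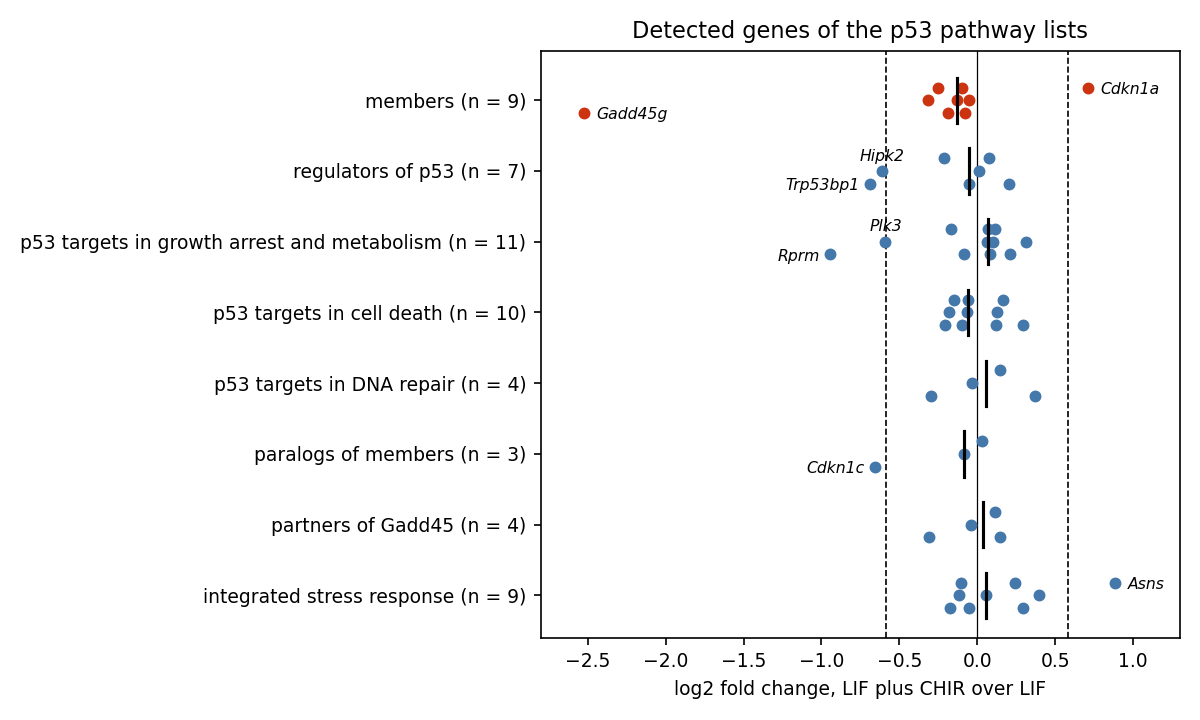
Log2 fold change (LIF plus CHIR over LIF, x axis) of each detected gene in the members (red) and the 7 wider lists (blue), with a black bar at the median of each list and dashed lines at 1.5-fold. The medians lie between -0.13 and 0.07, and the named genes are those past the limit.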

How the data were processed

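Total RNA from mESCs with LIF alone or with CHIR added was labelled with biotin and hybridised to Illumina mouse beadchips, with 1 array per condition, assigned from the sample titles. The labels call the cells B6, whereas the study's flow chart names 46C mESCs. The values the authors deposited are linear signal intensities, 1 per identifier and array, already background-subtracted, with 11742 and 11741 values below 0. Beside each signal stands a detection p-value, also deposited. The software and the normalization method are not given in the sources used here. The values used are labelled non-normalized, and a shorter deposited table of 11702 identifiers is labelled normalized. The shorter table repeated rows of the longer one, with 0 rows that differed. The labels therefore do not settle whether the values were normalized.

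The members and lists were chosen with earlier results of these data known. An identifier counted as detected with p under 0.01 on at least 1 array, and lower signals were raised to the dimmest detected one on the array (identifiers with 1 probe, 51.9 for LIF and 47.1 for LIF plus CHIR, and with several probes, 15.1 and 14.8). The number of probes was recovered from the detection p, and 414 identifiers matched no number. With 1 array per condition no test was run, bead error could not be estimated, and the number of arrays limits the precision. Every member was named, with every gene of a wider list past 1.5-fold, its brightest detected gene and its undetected genes, except 1 that is not reported here. List genes were matched by symbol (111), Entrez number (2) or synonym (1). Alternatives were quantile normalization, scaling to equal medians, normexp with an offset of 16, detection p under 0.05 or on both arrays, other minimum signals and a 2-fold limit. Detection by mean signal was added after seeing the data, and so was the octamer search. Calculations used Python 3.11.15 (numpy 2.4.6, pandas 2.3.3, scipy 1.17.1, matplotlib 3.10.9) and limma 3.58.1 in R 4.3.3, and were tested on simulated data.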

Additional observations from a re-analysis of the deposited data

How the results depend on the processing

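No member changed direction under any alternative run, but only quantile normalization, scaling to equal medians and normexp could change a member's value. The other settings changed which identifiers counted, the minimum signal or the limit, and left the members' values as they were. The number of members past the limit was 2 under every setting except the 2-fold limit, where it was 1, *Gadd45g*. At that limit 78 of all detected identifiers were higher and 54 lower, in place of 288 and 304. With detection p under 0.05, 479 were higher and 519 lower. That setting counted more identifiers, 11702, and also reset the minimum signal, and the effects of these were not separated. The other 78 values of the main counts and list medians stayed within 1.5 times or moved by less than the 1.5-fold limit, as did all 71 values of single members. The list medians lay between -0.08 and 0.07. A limit of 0.58 in log2 could hardly be passed by them, so their staying within it shows little. The median of the p53 targets in DNA repair, 0.06, ranged from -0.00 to 0.06 and so changed sign close to 0. *Gadd45b* was detected only by mean signal, with the same log2 value of 0.23. Detection on both arrays left *Mdm2* and *Trp53inp1* without one. No paired analysis was possible because there were no replicates to pair. Background noise of 15.4 (SD, LIF) and 15.3 (LIF plus CHIR) signal units limits the members with low signals, *Gadd45b* and *Sesn2*, most.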

Other observations

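When detection was judged by the mean signal, 55 of the 79 genes of the wider lists were detected in place of 47, with 2 higher and 5 lower and a median log2 difference of 0.02. The gene added past the limit was *Sfn* (log2 0.69). All 10 members were detected by that measure, with 1 higher, 1 lower and a median of -0.11, and over all identifiers 10803 were detected, with 275 higher and 311 lower.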
